A study of Mus musculus with 18 samples.

Results

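The gene group described here holds the 4 INK4 inhibitors of the D-cyclin kinases (Cdkn2a, Cdkn2b, Cdkn2c and Cdkn2d), the Cip/Kip inhibitor p57 (Cdkn1c) and a pair of transcripts used as markers of senescent cells, Lmnb1 and Glb1. Members were chosen by symbol, and all 7 were found among the 55450 genes of the deposited table. The study profiled ED1SQ4, a line established from lung cancers that arose in mice with an engineered cyclin E transgene. The cells received vehicle or CYC065, an inhibitor of the kinases CDK2 and CDK9, at 0.5 µM for 72 hours. RNA came from unsorted cells, from cells sorted as diploid (2N) and from cells sorted as polyploid (4N) on a DNA-binding dye, which gave 6 conditions from this cell line. A 4N gate set on DNA content also takes diploid-derived cells that have replicated their DNA but not yet divided, so the label covers more than polyploid cells.

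INK4 proteins bind Cdk4 and Cdk6 and keep them from pairing with D-type cyclins, which leaves the retinoblastoma protein active and holds cells before DNA replication. The Cdkn2a locus encodes a pair of unrelated proteins from separate starts, p16Ink4a, which is an INK4 inhibitor, and p19Arf, which binds Mdm2 and thereby stabilizes p53. Cdkn1c encodes p57Kip2, an inhibitor of cyclin E and cyclin A kinases that is expressed from the maternal allele of an imprinted domain. Lmnb1 encodes lamin B1 of the nuclear lamina, whose loss is used as a sign of senescence. Glb1 encodes the lysosomal beta-galactosidase whose activity is stained for in senescent cells.

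The 18 deposited columns were labelled as 3 replicates of each condition, while their library names number them as parts of 1 library. Over genes with whole counts the 3 columns of a condition differed by no more than sampling noise (chi-square per degree of freedom 0.992 to 1.02; 4.94 to 8.85 over genes with fractional values, whose reads RSEM divides between genes), so they were summed and counted as 1 library per condition. Summed totals ran from 54750203 to 62795507 counts. A gene was tested where at least 1 of the compared libraries held at least 30 counts, and it was called where the log2 ratio was beyond 1 in either direction, a 2-fold difference. The ranges in parentheses are 95% counting intervals, and these data hold no spread between separate cultures. In the check of the labelled lung origin, 1 of 7 epithelial markers reached 30 counts in any library and their summed level was 0.429 to 1.43 CPM (counts scaled to the library total), with Epcam and Cldn7 at no more than 3 counts. Epithelial markers were thus at or near 0 in this line, while 5 of 5 fibroblast markers reached 30 counts, with summed levels of 5816 to 15134 CPM.

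The 3 windows printed here lie before the starts from which the Cdkn2a and Cdkn2b transcripts arise, neighbours on chromosome 4 that were both higher in CYC065-treated cells. Each window is the stretch of 250 bases before an annotated start (RefSeq, GRCm38.p6, minus strand), printed 5′ to 3′ with the matched motif in capitals. The distal Cdkn2a start belongs to p19Arf, with its window at chr4:89294620-89294869, and the proximal start belongs to p16Ink4a, with its window at chr4:89282193-89282442. The Cdkn2b window is at chr4:89311033-89311282.
Cdkn2a, distal start: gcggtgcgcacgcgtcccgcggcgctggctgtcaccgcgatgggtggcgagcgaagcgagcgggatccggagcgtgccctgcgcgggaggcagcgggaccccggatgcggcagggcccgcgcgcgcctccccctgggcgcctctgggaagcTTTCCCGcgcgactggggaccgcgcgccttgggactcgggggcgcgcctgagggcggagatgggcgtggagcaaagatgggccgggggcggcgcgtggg
Cdkn2a, proximal start: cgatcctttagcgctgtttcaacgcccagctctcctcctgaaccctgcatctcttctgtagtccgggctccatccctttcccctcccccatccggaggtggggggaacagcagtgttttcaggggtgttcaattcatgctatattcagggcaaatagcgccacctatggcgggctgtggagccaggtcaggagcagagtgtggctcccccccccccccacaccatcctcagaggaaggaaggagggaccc
Cdkn2b: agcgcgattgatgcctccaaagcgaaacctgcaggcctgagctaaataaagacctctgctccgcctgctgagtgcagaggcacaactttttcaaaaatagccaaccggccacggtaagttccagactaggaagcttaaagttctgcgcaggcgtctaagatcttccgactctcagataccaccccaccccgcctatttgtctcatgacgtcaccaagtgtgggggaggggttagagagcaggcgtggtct
The E2F-type motifs TTTGGCG and TTTCCCG were searched on both strands. Of the 7 windows held for Cdkn2a, Cdkn2b, Cdkn2c, Cdkn2d and Glb1, the distal Cdkn2a window had a match, TTTCCCG at 99 bases before the start. The other 6 windows had none. The search of members did not include Cdkn1c or Lmnb1. Either motif occurred in 3.92% of 32851 mouse promoter windows of the same length. GC content was 78.4% in the distal Cdkn2a window, 60.0% in the proximal window and 53.6% in the Cdkn2b window.

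In the same cells the INK4 genes did not move as a block. CYC065-treated libraries held more Cdkn2a and Cdkn2b than vehicle libraries in each of the 3 cell populations, whereas Cdkn2d was lower in each and Cdkn2c differed in direction between populations. Glb1 was higher and Lmnb1 was lower in each population with CYC065. In 2N cells 3 of the 6 tested members were called higher (Cdkn2a, Cdkn2b and Glb1) and none lower, against 16.2% of 14090 tested genes called higher and 11.4% called lower. In 4N cells Cdkn2a and Glb1 were called higher, against 15.5% of 14183 tested genes, and none was called lower, against 10.1%. In unsorted cells Cdkn2a was called higher and Lmnb1 was called lower, against 12.6% of 14082 tested genes in each direction. The median log2 ratio of all tested genes was 0.01 in 2N, 0.03 in 4N and -0.01 in unsorted cells.

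**Figure D1:**
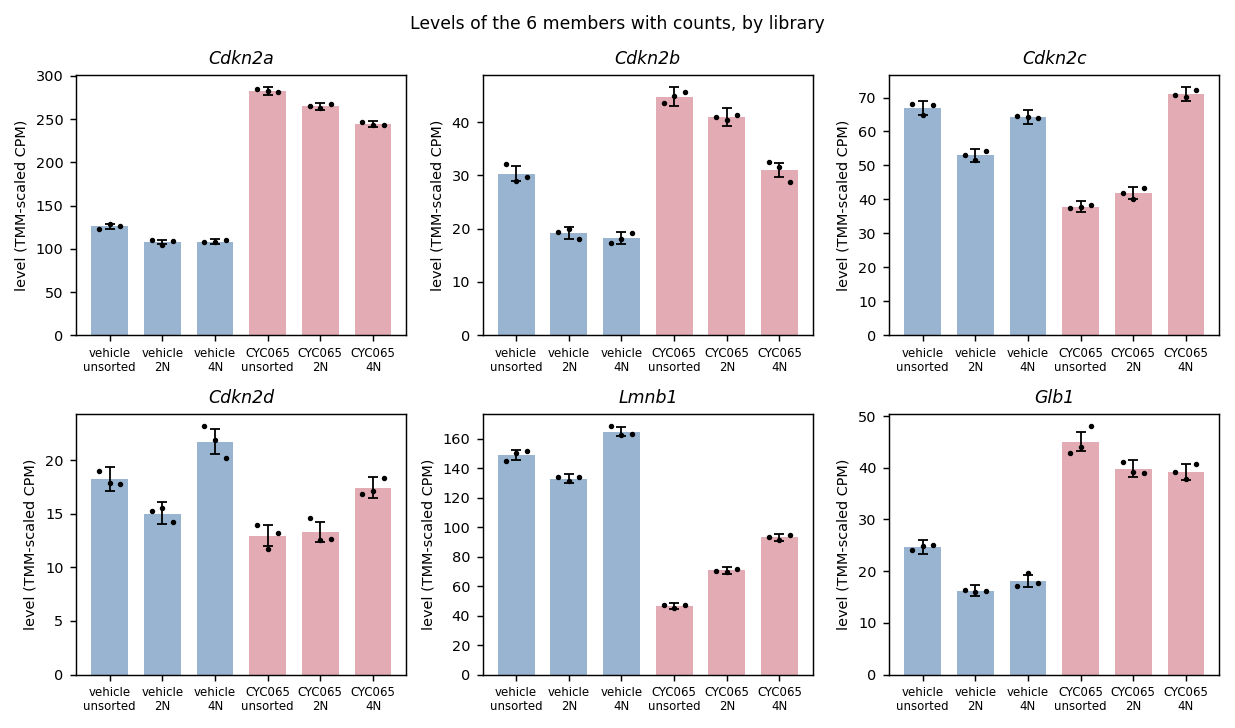
Level of each of the 6 members with counts in the 6 libraries, in TMM-scaled CPM on linear axes that start at 0 (blue, vehicle; red, CYC065). Bars are summed libraries, error bars are 95% counting intervals and points are the 3 parts of each library. The Cdkn2a bars run from 108 to 126 CPM with vehicle and from 244 to 283 CPM with CYC065.

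Cdkn2a (chromosome 4, 89274471 to 89294653, mm10, minus strand) was the most abundant INK4 gene per length in each library. Vehicle libraries held 7330 counts in unsorted, 6205 in 2N and 6537 in 4N cells, and CYC065 libraries held 15171, 15040 and 16282 in the same order. Scaled levels were 126, 108 and 108 CPM with vehicle and 283, 265 and 244 CPM with CYC065. The 6 libraries spanned 2.62-fold. The log2 ratio of CYC065 to vehicle was 1.30 (1.25 to 1.34) in 2N, 1.17 (1.13 to 1.22) in 4N and 1.17 (1.13 to 1.21) in unsorted cells. These values lay above 88.4%, 87.6% and 89.8% of the tested genes, in the same order. The ratio was larger in 2N than in 4N cells by 0.12 (0.06 to 0.18) on the log2 scale. Gene-level counts add transcripts from both starts, so p16Ink4a and p19Arf cannot be told apart in any of these values.

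Cdkn2b encodes p15Ink4b, an INK4 inhibitor known as a target of TGF-beta signalling, and lies beside Cdkn2a (89306299 to 89311039). Its counts were 1766 in unsorted, 1101 in 2N and 1098 in 4N cells with vehicle, and 2405, 2327 and 2063 with CYC065. Levels were 30.3, 19.1 and 18.2 CPM with vehicle against 44.8, 41.0 and 31.0 CPM with CYC065. Although each CYC065 library exceeded its own control, the CYC065 4N library and the vehicle unsorted library were not separable, with a log2 difference of 0.03 (-0.06 to 0.12). The log2 ratio to vehicle was 1.1 (0.99 to 1.20) in 2N, 0.77 (0.66 to 0.87) in 4N and 0.56 (0.47 to 0.65) in unsorted cells. The 2N interval reached below 1, so that call was lost where the whole interval had to lie beyond 2-fold. The ratio was larger in 2N than in 4N cells by 0.33 (0.18 to 0.48).

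Cdkn2c encodes p18Ink4c, an INK4 inhibitor whose transcript is known to rise as cells approach DNA replication (chromosome 4, 109660876 to 109667189, mm10). Counts were 3900 in unsorted, 3049 in 2N and 3877 in 4N cells with vehicle, and 2030, 2379 and 4734 with CYC065. Levels of 66.9, 53.0 and 64.2 CPM with vehicle compared with 37.8, 41.9 and 71.1 CPM with CYC065. The highest and the lowest of the 6 levels were both from CYC065-treated cells, the highest in the 4N library and the lowest in the unsorted library. Its log2 ratio to vehicle was -0.34 (-0.42 to -0.26) in 2N, 0.15 (0.08 to 0.21) in 4N and -0.82 (-0.90 to -0.75) in unsorted cells, none of which reached 2-fold. The 2N ratio minus the 4N ratio was -0.49 (-0.58 to -0.39) on the log2 scale.

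Cdkn2d encodes p19Ink4d, the INK4 inhibitor with the lowest median level per length over the 6 libraries (chromosome 9, 21288410 to 21291407, mm10). Vehicle libraries held 1060 counts in unsorted, 864 in 2N and 1312 in 4N cells, and CYC065 libraries held 696, 754 and 1161. Levels were 18.2, 15.0 and 21.7 CPM with vehicle and 13.0, 13.3 and 17.4 CPM with CYC065, so that the treatment groups overlapped. The log2 ratio to vehicle was -0.18 (-0.32 to -0.04) in 2N, -0.32 (-0.43 to -0.20) in 4N and -0.49 (-0.63 to -0.35) in unsorted cells. The difference between the 2N and 4N ratios, 0.14 (-0.04 to 0.32), was within counting error.

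Cdkn1c (chromosome 7, 143458339 to 143461050, mm10) was not detected above the floor of these libraries. It was at 0 counts in 5 libraries and at 2 counts in the CYC065 2N library, so it was not tested. The 3 counts that a 0 allows correspond to 0.0450 to 0.0559 CPM, depending on the library. Gm44732, an antisense gene whose exons share 625 bases with Cdkn1c, was at 0 counts in all 6 libraries.

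The wider imprinted domain had 10 listed genes, of which 6 were tested in 2N and 4N cells and 5 in unsorted cells. Igf2, a growth factor expressed from the paternal allele, had 12, 80 and 110 counts with vehicle in unsorted, 2N and 4N cells and 576, 253 and 210 with CYC065. Its log2 ratio was 1.67 in 2N, 0.79 in 4N and 5.65 in unsorted cells. Igf2 shares 61.2% of its 50-base stretches with the gene model Gm49394, so its counts are uncertain by the way reads were divided between them, which was not tested. The vehicle unsorted library lay below both vehicle sorted libraries in Igf2, and the CYC065 unsorted library lay above both CYC065 sorted libraries. In this list 2 genes were called higher in 2N cells, none in 4N cells and 1 in unsorted cells, with none lower in these 3 comparisons. Shares of all tested genes were 16.2%, 15.5% and 12.6% higher and 11.4%, 10.1% and 12.6% lower, in this order.

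**Figure D2:**
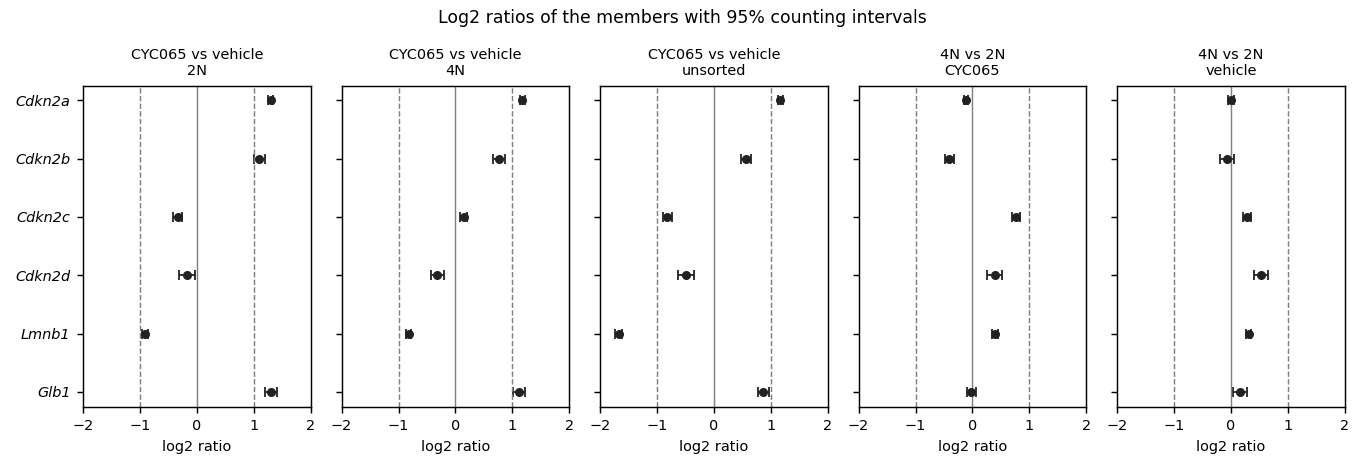
Log2 ratios of the 6 tested members (rows) in 5 comparisons (panels), with 95% counting intervals as error bars and dashed lines at 2-fold. Cdkn2a lies beyond the line in each of the 3 CYC065 panels, Lmnb1 does so in the unsorted panel, and no member does so in either panel of 4N against 2N.

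Levels per length, in TMM-scaled CPM per kilobase of exon (RPKM), allowed the INK4 genes to be set against each other and against their targets. Cdkn2a supplied 64.8%, 68.1% and 64.5% of the summed INK4 level in vehicle unsorted, 2N and 4N cells, and 81.6%, 80.9% and 77.7% with CYC065. The summed level was 166, 135 and 143 RPKM with vehicle and 296, 279 and 268 RPKM with CYC065. The Cdkn2c share was 15.0%, 14.6% and 16.7% with vehicle and 4.76%, 5.58% and 9.86% with CYC065, with the 4N library highest under each treatment. Because Cdkn2a counts include p19Arf transcripts, the INK4 sum is an upper value for inhibitor transcripts.

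Cdk4, the INK4 target with the higher level per length, was at 77.9, 87.0 and 92.7 RPKM with vehicle and at 34.3, 36.3 and 33.0 RPKM with CYC065. Cdk6 was at 14.3, 15.7 and 15.1 RPKM with vehicle and at 23.0, 19.4 and 18.7 RPKM with CYC065. Before division by length, CYC065 libraries held more Cdk6 (321, 271 and 261 CPM in unsorted, 2N and 4N cells) than Cdk4 (111, 118 and 107 CPM). With vehicle Cdk4 was higher by either measure. The summed INK4 level was thus 1.80, 1.31 and 1.33 times the summed Cdk4 and Cdk6 level with vehicle and 5.17, 5.01 and 5.19 times that level with CYC065. These are ratios of transcripts and carry no measure of protein. The lengths join all annotated exons of a gene, 13989 bases for Cdk6, 3249 for Cdk4 and 1172 for Cdkn2a. The size of the ratio, above or below 1, depends on that choice, and other lengths were not tried.

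**Figure D3:**
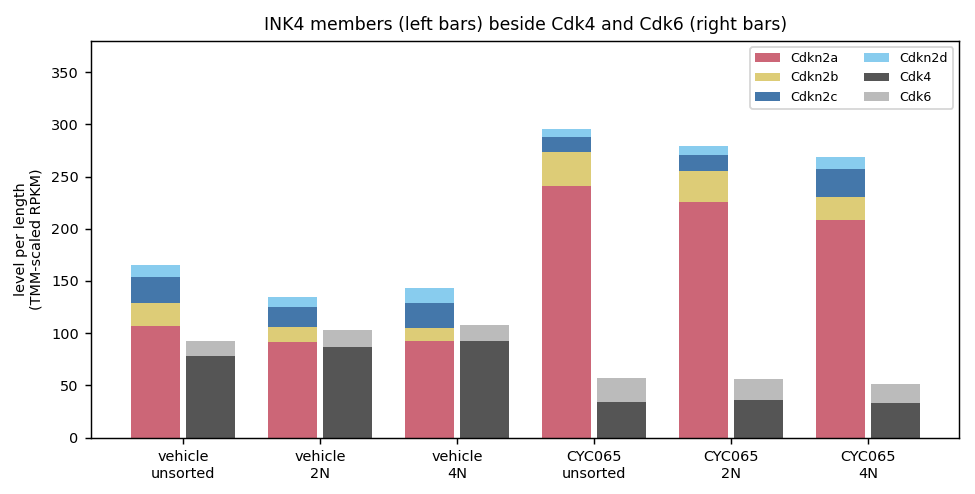
Stacked levels per length (TMM-scaled RPKM, axis from 0) of the 4 INK4 genes (left bar of each pair) and of Cdk4 and Cdk6 (right bar) in the 6 libraries, with Cdkn2a counts including p19Arf transcripts. The left bars run from 135 to 166 RPKM with vehicle and from 268 to 296 RPKM with CYC065.

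A further list held 8 genes, the INK4 targets Cdk4 and Cdk6, the D cyclins and the pocket proteins. In each of the 3 CYC065 comparisons 1 was called higher and 3 lower. Shares of all tested genes were 16.2% higher and 11.4% lower in 2N, 15.5% and 10.1% in 4N, and 12.6% each way in unsorted cells. Rbl1, the pocket protein p107, had log2 ratios of -2.43 in 2N, -1.96 in 4N and -2.28 in unsorted cells. Ccnd1, the cyclin D1 partner of Cdk4, had ratios of -1.25, -1.75 and -1.79, and Cdk4 itself had ratios of -1.26, -1.49 and -1.19. The gene called higher was Rbl2, the pocket protein p130 of resting cells, in 2N (1.31) and 4N cells (1.18), and Rb1, the retinoblastoma protein, in unsorted cells (1.01). The list medians were -0.11, -0.18 and 0.08.

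Of the Cip/Kip relatives of p57, Cdkn1b, which encodes p27Kip1, was called higher in 2N (1.67) and 4N cells (1.46). In unsorted cells its log2 ratio was 0.93. Cdkn1a, which encodes p21Cip1 and is a p53 target, was called lower in unsorted cells (-1.17) and had ratios of -0.28 in 2N and -0.58 in 4N cells.

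For p19Arf, 7 genes of its p53 arm were listed. None was called higher, beside 16.2%, 15.5% and 12.6% of all tested genes in 2N, 4N and unsorted cells. Npm1, nucleophosmin, which binds p19Arf in the nucleolus, was called lower in 2N (-1.08) and 4N cells (-1.20) and stood at -0.97 in unsorted cells, with 24.3% of its 50-base stretches shared with other genes. Trp53 had log2 ratios of -0.69, -0.72 and -0.69, and Mdm2 had ratios of 0.09, -0.05 and 0.13 in 2N, 4N and unsorted cells. Those last 2 genes were named after their values were seen.

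Polycomb complexes are known to hold the Cdkn2a locus silent. Of 15 listed polycomb and demethylase genes, 2 were called higher and 2 lower in 2N cells, 1 higher and 2 lower in 4N cells, and none in unsorted cells. The 2N and 4N shares were near those of all tested genes (16.2% and 11.4% in 2N, 15.5% and 10.1% in 4N). Those 2N and 4N counts show nothing particular to this list. In unsorted cells the absence of calls stood beside 12.6% of all tested genes called in each direction. Ring1, a polycomb ubiquitin ligase, had log2 ratios of -1.14 in 2N and -1.36 in 4N cells, and Phc2, a polyhomeotic subunit, of -1.08 and -1.01. Jarid2, a subunit of the methyltransferase complex, had ratios of 1.02 and 1.16, and Cbx8, a chromobox subunit, was called higher with 1.1 in 2N cells. The list medians were 0.17, 0.18 and -0.18.

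Around Cdkn2a, 40 genes lay within 500 kb, of which 11, Cdkn2a included, reached 30 counts in any library and 8 had no count. Mtap, the methylthioadenosine phosphorylase gene next to the locus, had 11708, 14070 and 15140 counts in unsorted, 2N and 4N cells with vehicle and 7684, 11934 and 14531 with CYC065. Its log2 ratios of -0.22 in 2N, -0.20 in 4N and -0.49 in unsorted cells were opposite in sign to those of Cdkn2a and Cdkn2b. Wincr1, a long noncoding RNA gene, fell from 475 to 77 counts in 2N, from 685 to 94 in 4N and from 358 to 22 in unsorted cells (log2 ratios -2.60, -3.00 and -3.88). The type I interferon gene Ifnz had 3 to 6 counts with vehicle and 32 to 54 counts with CYC065. Direction therefore differed between neighbours on the same stretch of chromosome.

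Lmnb1 (chromosome 18, 56707813 to 56753424, mm10, plus strand) had the widest span among the 6 members with a full set of counts, 3.54-fold. Counts were 8673 in unsorted, 7647 in 2N and 9941 in 4N cells with vehicle, and 2500, 4007 and 6191 with CYC065. Levels were 149, 133 and 165 CPM with vehicle against 46.6, 70.5 and 92.9 CPM with CYC065. The log2 ratio to vehicle was -0.91 (-0.97 to -0.86) in 2N and -0.83 (-0.87 to -0.78) in 4N cells, both short of 2-fold, and -1.68 (-1.74 to -1.61) in unsorted cells, a level 3.20-fold lower. The unsorted ratio minus the 2N ratio was -0.76 (-0.85 to -0.68), and minus the 4N ratio it was -0.85 (-0.93 to -0.77).

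Another 16 genes were listed for the nuclear lamina and envelope, with the enzyme genes Fntb, Icmt, Rce1 and Zmpste24 among them. None was called higher in 2N, 4N or unsorted cells with CYC065, beside 16.2%, 15.5% and 12.6% of all tested genes. Called lower were 5 in 2N, 3 in 4N and 4 in unsorted cells, beside 11.4%, 10.1% and 12.6%. Emd, which encodes the inner membrane protein emerin, had log2 ratios of -2.13, -2.25 and -1.94 in 2N, 4N and unsorted cells. Banf1, the barrier-to-autointegration factor that links chromatin to the envelope, had ratios of -1.20, -1.07 and -1.38. Lmnb2, the other B-type lamin, was called lower in 2N (-1.45) and unsorted cells (-1.24) and stood at -0.99 in 4N cells. Rce1, the protease that trims prenylated lamins, was called lower in 2N (-1.29) and 4N cells (-1.08), and Lbr, the lamin B receptor, was lower in 2N (-1.06) and unsorted cells (-1.06). List medians were -0.55, -0.46 and -0.26, beside all-gene medians near 0.

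Glb1 (chromosome 9, 114401076 to 114474898, mm10, plus strand) had 1437 counts in unsorted, 931 in 2N and 1091 in 4N cells with vehicle, and 2417, 2259 and 2610 with CYC065. Levels of 24.7, 16.2 and 18.1 CPM with vehicle compared with 45.0, 39.8 and 39.2 CPM with CYC065. The log2 ratio to vehicle was 1.30 (1.19 to 1.41) in 2N and 1.12 (1.01 to 1.22) in 4N cells, both called, and 0.87 (0.77 to 0.96) in unsorted cells, which was not called. The vehicle unsorted library was the highest of the vehicle libraries, 0.45 (0.33 to 0.56) above the vehicle 4N library on the log2 scale.

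Glb1 was the tested member that shared sequence with another gene, Tmppe, through 165 bases of exon on the same strand, and 4.26% of its 50-base stretches occurred elsewhere in the transcriptome. Tmppe had 553, 629 and 572 counts with vehicle in unsorted, 2N and 4N cells and 325, 356 and 330 with CYC065, the opposite direction. With all counts of both genes added together the log2 ratios were 0.76 in 2N, 0.68 in 4N and 0.58 in unsorted cells, short of 2-fold. The sum takes in all of Tmppe, 2921 bases of exon of which 165 are shared. It therefore cannot decide how far the Glb1 calls rest on shared reads. How many reads of the shared exon were assigned to each gene was not tested, and since Glb1 columns hold fractional values its counting intervals leave out the error of that assignment.

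**Figure D4:**
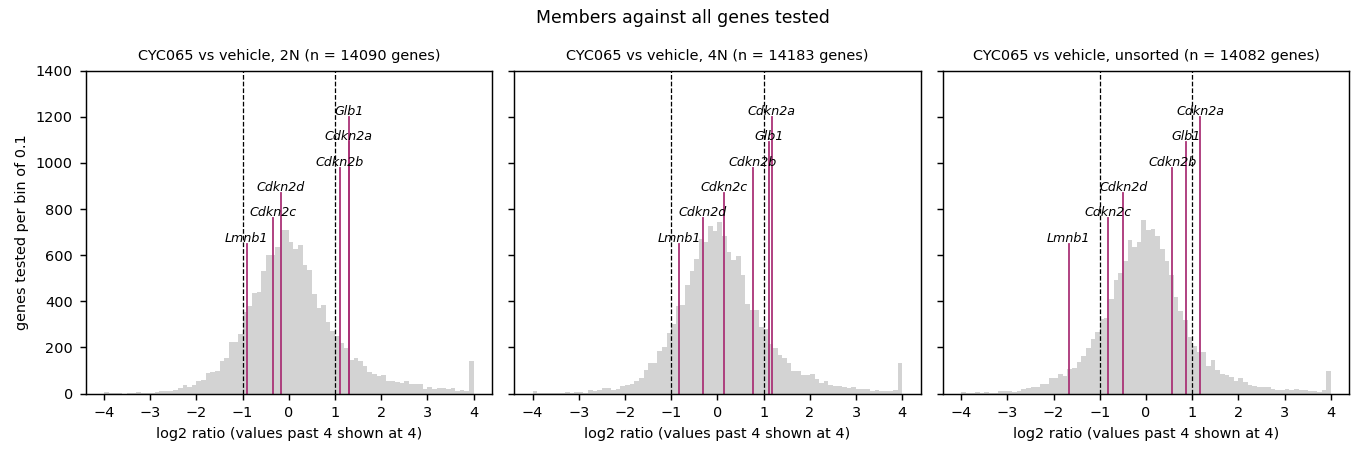
Histograms of log2 ratios (CYC065 over vehicle, bins of 0.1) of all tested genes in 2N, 4N and unsorted cells, with dashed lines at 2-fold and a vertical line for each tested member, whose height has no meaning. Cdkn2a and Glb1 sit on the right flank and Lmnb1 on the left flank of each histogram, and Cdkn2c changes side between the panels.

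Another 24 genes were listed for lysosomes, as hydrolases, membrane proteins and the transcription factors Tfeb and Tfe3. Of these, 10 were called higher in 2N, 6 in 4N and 12 in unsorted cells, beside 16.2%, 15.5% and 12.6% of all tested genes. None was called lower, beside 11.4%, 10.1% and 12.6%. Manba, the lysosomal beta-mannosidase, had log2 ratios of 2.09, 1.09 and 2.28 in 2N, 4N and unsorted cells. Hexa, the alpha subunit of beta-hexosaminidase, had ratios of 1.70, 1.43 and 1.98, and the protease gene Ctsd had ratios of 1.68, 1.20 and 1.80, with 32.4% of its 50-base stretches shared with Gm49369. Gla, the lysosomal alpha-galactosidase, had ratios of 1.99, 1.91 and 1.26. The list medians were 0.78, 0.52 and 0.98. The pair whose proteins form a complex with beta-galactosidase, named after their values were seen, differed. Neu1, the sialidase, had ratios of 1.27, 0.81 and 1.03, while Ctsa, the protective protein, had ratios of 0.29, -0.18 and 0.26.

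**Figure D5:**
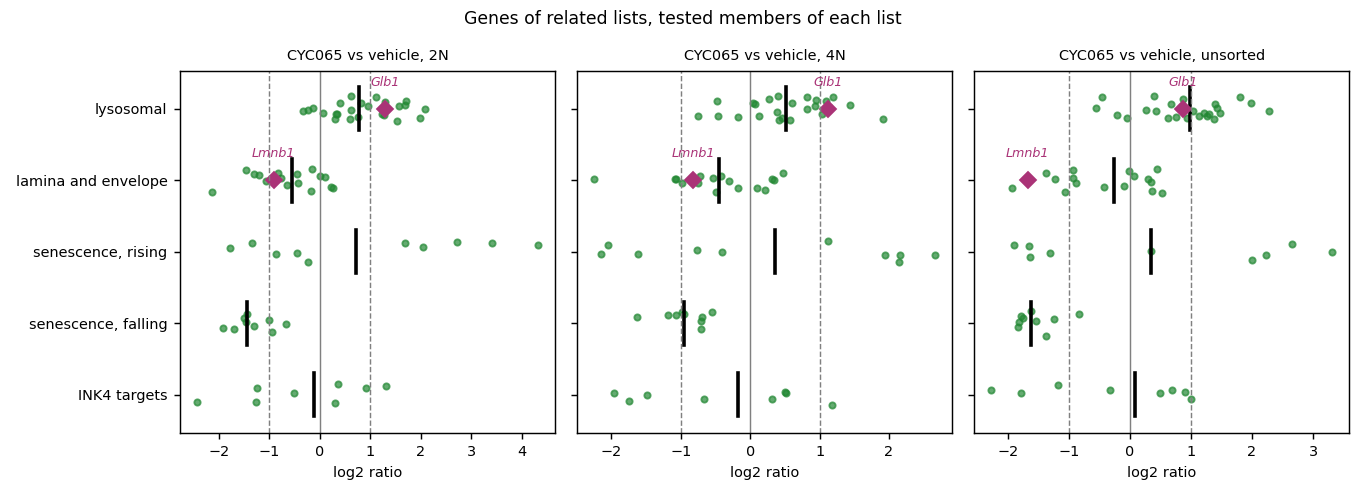
Log2 ratios (CYC065 over vehicle) of the tested genes of 5 related lists in 2N, 4N and unsorted cells, with black bars at list medians and dashed lines at 2-fold. Diamonds mark Glb1 and Lmnb1, which are members and not counted in the list medians; the lysosomal medians are 0.78, 0.52 and 0.98 and the lamina medians are -0.55, -0.46 and -0.26.

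Genes listed as known to rise in senescent cells, most of them secreted or at the cell surface, were divided. Shares of all tested genes were 16.2%, 15.5% and 12.6% higher and 11.4%, 10.1% and 12.6% lower in 2N, 4N and unsorted cells. Of 10 listed genes tested in 2N cells 5 were called higher and 2 lower. Of 10 tested in 4N cells 5 were higher and 3 lower, and of 9 tested in unsorted cells 4 were higher and 4 lower. Those called higher include Mmp3 and Mmp13 in each population and Il6 in 2N and 4N cells, which had no more than 95 counts in any of these libraries. Those called lower in unsorted cells include Hmga2, a nuclear chromatin protein, at -1.32. These 4 genes were named after their values were seen. Igfbp7, an insulin-like growth factor binding protein, had log2 ratios of 3.41, 2.15 and 2.00, and the chemokine gene Cxcl1 had ratios of 1.69, 1.12 and 2.23 in 2N, 4N and unsorted cells. Plaur, the urokinase receptor, had ratios of -1.78, -2.15 and -1.65. Ccl2, another chemokine gene, stood at -0.44 in 2N and was called lower in 4N (-1.61) and unsorted cells (-1.90).

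The 9 genes known to fall in senescent or resting cells were all below 0 in the 3 populations. Called lower were 6 in 2N, 3 in 4N and 8 in unsorted cells, beside 11.4%, 10.1% and 12.6% of all tested genes. Medians of the 9 were -1.45, -0.95 and -1.62. Mcm2, a subunit of the replicative helicase, had log2 ratios of -1.70, -1.63 and -1.80, and Top2a, topoisomerase II alpha, had ratios of -1.92, -0.98 and -1.38. The proliferation marker Mki67 had ratios of -1.49, -0.69 and -1.62.

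Markers of other cell types moved with treatment as well. Fibroblast markers were called higher in 3 of 5 in 2N, 2 of 5 in 4N and 3 of 5 in unsorted cells, with none lower. Shares of all tested genes called higher were 16.2%, 15.5% and 12.6%. Leukocyte markers summed to 4.71 to 25.7 CPM, 2 of 5 reached 30 counts, and Ptprc and Cd3e were at no more than 3 counts in every library. Of the pair tested, Cd68, which encodes a lysosomal membrane protein of macrophages, had log2 ratios of 2.86, 2.44 and 1.48, and Csf1r, the receptor for macrophage colony-stimulating factor, had ratios of -0.16, -0.87 and -1.21. Endothelial markers summed to 0.532 to 1.87 CPM, with 1 of 4 reaching 30 counts. That gene, Cdh5, which encodes VE-cadherin, had 91 counts with vehicle and 30 with CYC065 in 4N cells and was called lower there (-1.73). Csf1r and Cdh5 were named after their values were seen. The part of these markers in the member ratios was not tested, and fewer cells of a type cannot be told apart from less RNA per cell in these bulk libraries.

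The sort was then compared within each treatment, to ask how the members differed between 4N and 2N cells. No member reached 2-fold, beside 3.56% of 14180 tested genes called in either direction with CYC065 and 2.69% of 13365 with vehicle. With CYC065 the member furthest from 0 was Cdkn2c, at 0.76 (0.69 to 0.83) higher in 4N cells, a size larger than that of 93.9% of tested genes. With vehicle the same gene was higher in 4N cells by 0.28 (0.21 to 0.35). The difference between the ratios was 0.49 (0.39 to 0.58), short of 2-fold, a threshold that 7.08% of 14482 tested genes passed in either direction.

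Cdkn2d and Lmnb1 were higher in 4N than in 2N cells under each treatment. The Cdkn2d log2 ratio was 0.53 (0.41 to 0.66) with vehicle and 0.39 (0.26 to 0.53) with CYC065, and the Lmnb1 ratio was 0.31 (0.27 to 0.35) and 0.40 (0.34 to 0.46). Cdkn2b was lower in 4N than in 2N cells with CYC065, at -0.40 (-0.49 to -0.32), and its vehicle ratio of -0.07 (-0.19 to 0.05) was within counting error. Cdkn2a differed little, at -0.12 (-0.15 to -0.08) with CYC065 and 0.01 (-0.04 to 0.06) with vehicle. Glb1 was at -0.02 (-0.10 to 0.06) with CYC065 and 0.16 (0.03 to 0.29) with vehicle.

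Related genes differed between the sorted populations in the same comparisons. Among the 9 genes known to fall in senescent or resting cells, 3 were called higher in 4N than 2N cells with CYC065. The share of all tested genes called in either direction was 3.56%. Called were Top2a, Mki67 and Ccna2 (cyclin A2), by 1.45, 1.24 and 1.09, with ratios of 0.52, 0.44 and 0.60 with vehicle. With CYC065 8 of the 9 were above 0 and 1 was below. With vehicle 6 were above 0 and 3 below, and none was called. Of the 24 genes listed for lysosomes none was called in either treatment, beside the shares of all tested genes given above. With CYC065 20 were below 0 (median -0.19). With vehicle 22 were above 0 (median 0.16), and the transcription factors Tfeb (-0.23) and Tfe3 (-0.20) were below 0. The lamina list had medians of 0.09 with CYC065 and 0.02 with vehicle, with none called.

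Unsorted cells did not always lie between the sorted populations. With CYC065 the unsorted Lmnb1 level was 0.60 (0.53 to 0.67) on the log2 scale below that of 2N cells, the nearer sorted library. With vehicle the unsorted level was above both sorted levels for Cdkn2b by 0.66, for Glb1 by 0.45 and for Cdkn2a by 0.22. Unsorted levels outside the sorted range were common, at 85.4% of 13812 tested genes with vehicle (median distance 0.28) and 81.7% of 14395 with CYC065 (median distance 0.22). This measure was added after the data were seen. The staining and sorting that separate these libraries cannot be told apart from cell makeup.

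In the order of levels across the 6 libraries, several neighbours were not separable by counting error. For Cdkn2a these were vehicle 4N and 2N, for Cdkn2b vehicle 2N and 4N and the pair named above, and for Cdkn2c vehicle unsorted and 4N cells. Cdkn2d had 2 such pairs, vehicle unsorted with CYC065 4N cells and CYC065 2N with CYC065 unsorted cells. For Glb1 CYC065 2N and 4N cells were not separable, while each neighbouring pair of Lmnb1 levels was.

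Among the members themselves, profiles were closest for Cdkn2a and Glb1, whose log2 levels, centred on their means, differed by a root mean square (RMS) of 0.13 over the 6 libraries. Cdkn2c and Cdkn2d differed by 0.18, Cdkn2b and Glb1 by 0.21, and Cdkn2a and Cdkn2b by 0.28. Lmnb1 stood furthest from Cdkn2a, at 1.23. For the 4 members that spanned over 2-fold, the 3 most alike of 10815 genes were named. For Cdkn2a these were Kdelc2 (RMS 0.046), Sgtb (0.049) and Ivd (0.051), and for Cdkn2b they were Npr1 (0.048), Mvp (0.050) and the fibroblast marker Col1a2 (0.058). For Lmnb1 they were Dmtn (0.073), Hmgb2 (0.079) and Lsm4 (0.082), of which Hmgb2, a chromatin protein, was also on the list of genes that fall. For Glb1 they were Zfp867 (0.041), Wdtc1 (0.049) and Tbcel (0.050). The points share the same 6 libraries and their scaling, and the likeness is a description only.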

How the data were processed

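RNA-Seq was performed on ribosomal RNA-depleted stranded libraries. Per the labels and the study's methods, the authors trimmed reads with Cutadapt (1.18), aligned them with STAR (2.7.0f) to mm10 with GENCODE M21 annotation and obtained estimated (expected) counts per gene with RSEM (1.3.1), versions as in the submitters' processing notes. Whether counting used strand is not given in the sources used here. The deposited table holds expected counts, and 9.66% of genes have a value that is not whole.

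Columns were rounded after summing the 3 columns of each condition, which made 6 libraries, and scaled by TMM (edgeR 4.0.16), with 0.5 added to counts before logs. Intervals are exact Clopper-Pearson and, for differences of ratios, Wald; they cover counting error only. Exon lengths, coordinates and neighbours came from GENCODE M21. With 1 library per condition, no p-value was computed for a condition. Scripts were tested on simulated data. Named genes were all 7 members, and from each list up to 4 called genes with the largest log2 ratio and at least 100 counts in the higher library; some genes of these lists are not reported here. Members and lists were chosen with earlier results of these data known. Alternatives were other scalings, other filters, each column left out, and edgeR or DESeq2 (1.42.0) on the 3 columns, where a call needed an adjusted p under 0.05 and a 2-fold difference. Protein sequences were not used here.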

Additional observations from a re-analysis of the deposited data

Results flagged for a closer look

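The response of Cdkn2c, the p18Ink4c gene, went in opposite directions in different cell populations. Its log2 ratio of CYC065 to vehicle was -0.34 in 2N cells, 0.15 in 4N cells and -0.82 in unsorted cells. With TMM scaling the 95% counting interval of each value excluded 0. The 2N and 4N ratios differed by -0.49 (-0.58 to -0.39), and the unsorted and 4N ratios by -0.97 (-1.07 to -0.87). The 4N ratio stayed above 0 under 13 alternatives, from 0.06 to 0.22. The lowest of these lay below the TMM-scaled interval of 0.08 to 0.21, so the distance of this ratio from 0 depends on the scaling. In size the 4N ratio exceeded 14.8% of tested genes. Each condition was 1 library, so the difference was tested against counting error and not against the spread between cultures.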

How the results depend on the processing

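Genes called numbered 3899 in 2N, 3634 in 4N and 3552 in unsorted cells (CYC065 against vehicle), 505 and 359 for 4N against 2N with CYC065 and vehicle, and 1026 for the difference of those ratios. In this order the counts were 11606, 10868, 10302, 7045, 5463 and 9585 with no filter on low counts, where genes of few counts enter. For the last 3 comparisons they were 218, 120 and 306 with at least 100 counts, 163, 72 and 109 where the whole interval had to lie beyond 2-fold, and 42, 22 and 16 in edgeR where the spread between cultures was assumed (coefficient of variation 0.2). For the difference of ratios quasi-likelihood testing in edgeR of the 3 columns gave 542, the same with a replicate block 531 and DESeq2 343. Leaving out each replicate column in turn gave 3906 to 3956, 3605 to 3666, 3573 to 3588, 552 to 560, 376 to 439 and 1120 to 1167.

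Under 13 alternatives no member gained or lost a call, apart from Cdkn2b in 2N cells where the whole interval had to lie beyond 2-fold. The sign differed between alternatives for Cdkn2a in 4N against 2N cells with vehicle (-0.01 to 0.04) and for Glb1 with CYC065 (-0.07 to 0.01), both within counting error of 0. Scaling by library size alone, which lowered the median of all genes by 0.11 in the unsorted comparison, moved 11 of 36 member values past their counting intervals, and DESeq2 size factors moved 4. Adding all Tmppe counts to Glb1, chosen after seeing the data, gave sums short of 2-fold in 2N (0.76) and 4N cells (0.68). Most of the Tmppe exon is not shared with Glb1, so the sum does not test the Glb1 calls. Same-numbered columns of different conditions did not consistently deviate together. Their correlations were -0.36 to 0.51 over 45 pairs, beside -0.37 to 0.34 for differently numbered columns. Of 18 columns, 2 correlated best with their own number. The replicate block gave 3872, 3610, 3520, 462 and 319 calls in the first 5 comparisons. Cdkn1c, at 0 to 2 counts, was too low to be tested. Absence cannot be told apart from a level below the depth of these libraries. The 3 columns of a condition are parts of 1 library, so adjusted p-values from them compare libraries, not cultures.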
